A study of Mus musculus with 2 samples.

Results

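The transcription factor genes considered here are 10 genes tied to helper T cell lineages: Gata3, Maf, Nfil3, Stat6, Epas1, Satb1, Tcf7, Lef1, Irf4 and Tle5. They were matched by gene symbol to the platform annotation of both chips of the Affymetrix Mu11k set, called subA and subB. A total of 9 genes had at least 1 probe set, and Tcf7 had none under that symbol. These 9 are among 6137 genes named on the chips. They were read by 12 probe sets, 7 of 6584 on subA and 5 of 6595 on subB. Of these genes, Maf alone had probe sets on both chips.

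The cells were CD4+ T cells, purified out of the spleen and lymph node of female B10.PL mice. These mice carry a transgenic T-cell receptor for MBP Ac1-11, a peptide from the start of myelin basic protein. Cells were taken at 48 h, and neither the age of the mice nor any pooling of animals is stated. The study set cells stimulated with 4Y against cells stimulated with Ac1-11. As background, 4Y is known as an analogue of the same peptide with a tyrosine substitution that binds the class II molecule more stably, although the labels do not describe it. All cells in the comparison carried the same transgenic receptor.

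Each chip contributed 1 array of deposited levels, plus 1 comparison with a baseline array whose level follows from the deposited change. Neither condition has a replicate array among the files used here, so there is no test and no p-value, and precision is limited by having single arrays. The series title calls the comparison combined, without saying what was combined. The levels deposited under the Ac1-11 labels were identical to those of the experiment named 4Y in the authors' deposited table, for 6584 of 6584 and 6595 of 6595 probe sets. In addition, of 135 genes detected on both chips, 72 had opposite and 40 had equal directions on subA and subB. Which array is 4Y was therefore not settled. Values below run from the deposited array over the baseline array, each chip by itself, and a direction on one chip says nothing of the other. Levels of the deposited array, folds, difference calls and probe pair counts are those of the authors' deposited table.

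Helper T cells take on a lineage when signals from the T-cell receptor and cytokine receptors switch on a small set of transcription factors. In the type 2 (Th2) branch, interleukin 4 activates Stat6, which raises Gata3. Gata3 then opens and drives the genes of interleukins 4, 5 and 13, and Maf activates the interleukin 4 gene. Tcf7 and Lef1 are high-mobility-group factors of naive T cells that bind beta-catenin as well as corepressors of the Groucho family, to which the short protein Tle5 belongs.

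Promoter windows of 7 of the 10 genes were matched by symbol in RefSeq (GRCm38.p6), each reaching from 250 bases before to 50 bases after a transcription start. The 4 genes with a single window are printed, to show the sequence next to the start of the transcripts whose levels follow. Capitals mark matches, on either strand, to binding motifs of these factors. The motifs searched were TTCNNNNGAA for Stat6, CTTTG for Tcf7 and Lef1, GATAA for Gata3, ACGTG for Epas1 and TGCTGA for Maf.
Nfil3: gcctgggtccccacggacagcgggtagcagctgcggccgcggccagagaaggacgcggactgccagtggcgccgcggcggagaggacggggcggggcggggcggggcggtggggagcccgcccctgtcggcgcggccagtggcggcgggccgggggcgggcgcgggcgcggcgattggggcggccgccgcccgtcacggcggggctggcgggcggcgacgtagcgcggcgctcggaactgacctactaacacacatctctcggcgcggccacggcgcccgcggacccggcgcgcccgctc
Stat6: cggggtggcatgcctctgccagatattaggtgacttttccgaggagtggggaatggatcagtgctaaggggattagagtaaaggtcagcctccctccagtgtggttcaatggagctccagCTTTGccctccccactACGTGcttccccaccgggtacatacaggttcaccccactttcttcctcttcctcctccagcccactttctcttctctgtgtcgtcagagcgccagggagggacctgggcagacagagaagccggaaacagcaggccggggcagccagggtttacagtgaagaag
Irf4: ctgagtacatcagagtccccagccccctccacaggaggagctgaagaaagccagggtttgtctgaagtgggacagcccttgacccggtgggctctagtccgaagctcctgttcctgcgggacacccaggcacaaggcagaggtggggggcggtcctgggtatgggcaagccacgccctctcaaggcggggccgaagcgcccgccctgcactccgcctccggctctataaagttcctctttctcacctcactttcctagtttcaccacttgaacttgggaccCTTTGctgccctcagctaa
Gata3: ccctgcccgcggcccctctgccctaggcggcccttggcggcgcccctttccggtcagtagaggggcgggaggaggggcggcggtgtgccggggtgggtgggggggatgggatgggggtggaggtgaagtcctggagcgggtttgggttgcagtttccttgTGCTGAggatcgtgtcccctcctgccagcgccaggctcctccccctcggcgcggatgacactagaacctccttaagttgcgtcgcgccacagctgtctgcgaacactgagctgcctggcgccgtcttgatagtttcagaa

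The Nfil3 window lies at chr13:52980990-52981289 on the minus strand and the Stat6 window at chr10:127642736-127643035 on the plus strand. The Irf4 window lies at chr13:30748983-30749282 on the plus strand and the Gata3 window at chr2:9878551-9878850 on the minus strand. Nfil3 held none of the 5 motifs. Stat6 held 1 match to CTTTG and 1 to ACGTG, Irf4 held 1 match to CTTTG, and Gata3 held 1 match to TGCTGA. The motifs are short and common. Of 32851 windows in the table, 53.9% held CTTTG, 25.4% GATAA, 19.6% ACGTG, 19.5% TGCTGA and 7.0% TTCNNNNGAA. A match describes the letters only, and the arrays did not measure binding.

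On subA, the genes Maf, Epas1 and Nfil3 had the highest folds of these factors, at 2.2, 2.0 and 1.6 higher on the deposited array, while Stat6, Satb1 and Irf4 lay within a fold of 1.1 of the baseline. On subB, Tle5 was 7.7-fold lower, and Maf and Gata3 had lower folds without a difference call. A probe set was counted as changed when its deposited fold was at least 2 in either direction, its difference call was increase or decrease, and it was detected, that is, called present on the deposited array or not marked absent on the baseline array. By that rule 1 of 7 probe sets on subA, Epas1 by 1 of its probe sets, counted as higher, and 1 of 4 detected probe sets on subB, Tle5, counted as lower. Over all detected probe sets, 4.46% counted as changed on subA (1.76% as higher) and 6.23% on subB (1.99% as lower). With so few probe sets, 1 call makes up the whole share of 14.3% or 25.0%, so these shares were not read as different from the chip's. The median log2 fold was 0.26 over the 7 probe sets on subA and -0.92 over the 4 detected on subB, against 0 over all detected probe sets of each chip.

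**Figure D1:**
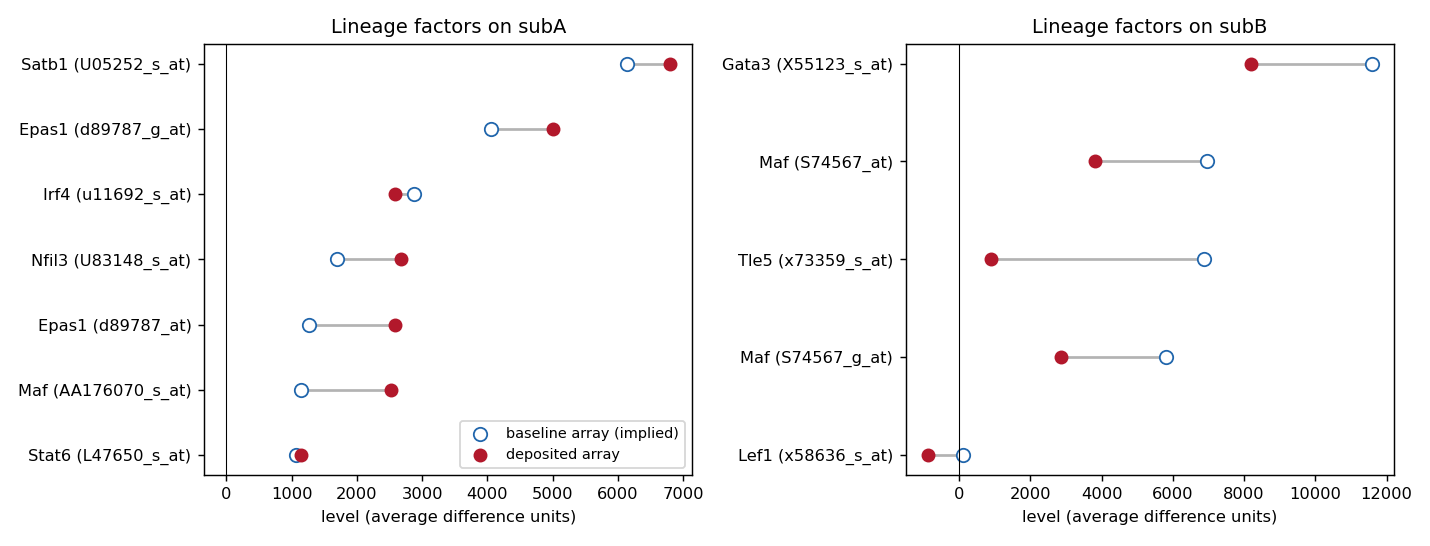
Levels of the 12 probe sets on each chip, in average difference units (horizontal axis), with open circles for the implied baseline array and filled circles for the deposited array. The filled circle lies to the right for 6 of 7 probe sets on subA and to the left for all 5 on subB, with the longest line for Tle5.

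Maf, which encodes c-Maf, an activator of the Il4 and Il10 genes, was read by 1 probe set on subA and by a pair on subB. On subA its level was 2523 on the deposited array and 1139 on the baseline array, 2.2-fold higher in the authors' deposited table. Of 20 probe pairs, 12 were scored as increased and 2 as decreased, yet the table gives no difference call. Only 38 of the 3343 detected probe sets on this chip (1.1%) had 12 or more increased pairs. Of these, 32 had an increase call, 3 a marginal one and 3, Maf among them, none. The number of probe pairs with perfect match clearly above mismatch was 10 on both arrays. Maf thus met the fold but not the call.

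On subB the Maf levels ran the other way. The probe set S74567_at had levels of 3819 on the deposited and 6966 on the baseline array, 1.8-fold lower, with 4 probe pairs decreased and 2 increased. The probe set S74567_g_at, from the same transcript record, had levels of 2877 and 5814, 2.0-fold lower, with 6 pairs decreased and 1 increased. Both lacked a difference call. The pair thus gave like folds on this chip, with log2 values of -0.85 and -1.0 against 1.14 on subA. As a yardstick for the error, 2 probe sets of the same gene differed with a per-probe-set SD of 0.46 on the log2 scale over 251 genes of subA, and of 0.62 over 51 genes of subB. The Maf values were thus 2.47 SDs from 0 on subA and -1.37 and -1.61 SDs on subB, which covers disagreement between probe sets only and not the spread between cultures.

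Gata3, the factor that defines Th2 cells, was read on subB alone. Its level was 8189 on the deposited array and 11583 on the baseline array. The fold was 1.4 lower and had no call; among 20 probe pairs, 3 were scored down and 1 up. At -0.78 SDs between probe sets, this difference was no larger than the disagreement of probe sets of 1 gene, and 23.9% of detected probe sets on subB were at least as far down.

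Stat6, which carries the interleukin 4 signal to the nucleus, was nearly level on subA. It was at 1152 on the deposited and 1075 on the baseline array, 1.1-fold higher, with 1 probe pair increased and 1 decreased. Of its 20 probe pairs, 9 were positive on each array. Irf4, a factor needed for Th2 and Th17 differentiation in mice, had levels of 2582 and 2877, 1.1-fold lower, with 2 pairs increased and 1 decreased. Their log2 folds lay 0.30 and -0.30 SDs from 0.

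Nfil3, a leucine zipper factor also known as E4BP4 that regulates cytokine genes in T cells, had a level of 2669 on the deposited and 1695 on the baseline array of subA. The authors' deposited table gives a fold of 1.6 with an increase call, as 8 of 20 probe pairs were increased and none decreased. Its positive pairs numbered 19 on the deposited and 17 on the baseline array. It did not reach the 2-fold threshold. Increase calls went to 2 of the 7 probe sets on subA, Nfil3 and Epas1, against 3.14% of all detected probe sets.

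Epas1 encodes HIF-2alpha, an oxygen-regulated partner of Arnt. By the probe set d89787_at its level was 2577 on the deposited and 1275 on the baseline array, 2.0-fold higher, with 12 of 20 probe pairs increased and none decreased. By d89787_g_at, drawn from the same sequence record, the levels were 5009 and 4059, 1.2-fold higher, with 2 pairs increased and none decreased. The changes in level, at 1302 and 950 units, were closer to each other than the folds, because the second probe set started from the higher baseline. The count for Epas1 therefore rests on 1 of its probe sets, which lies exactly at the fold threshold, and 5.3% of detected probe sets on subA were at least as far up.

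**Figure D2:**
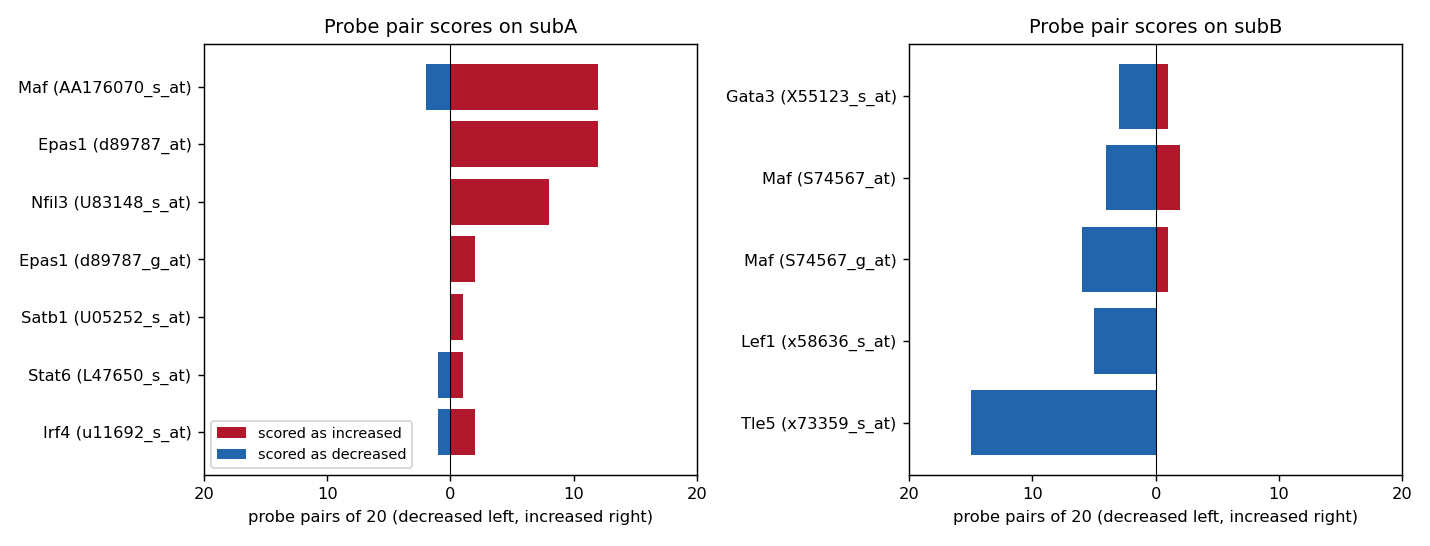
Number of the 20 probe pairs of each probe set scored as increased (red, right) or decreased (blue, left), on subA and subB. Maf and one Epas1 probe set reach 12 increased pairs on subA, and Tle5 reaches 15 decreased pairs on subB.

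Satb1, a chromatin organiser of T cells, was read on subA. Its levels were 6799 on the deposited and 6133 on the baseline array, 1.1-fold higher, with 1 probe pair increased and none decreased. All 20 probe pairs were positive on the deposited array and 18 on the baseline array.

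Lef1 could not be measured. Its levels on subB were -870 on the deposited and 100 on the baseline array, both called absent, and its 20 probe pairs split into 7 positive and 8 negative on the deposited array. The approximate fold of 3.3 lower in the authors' deposited table is a difference between signals not told from background. Lef1 was the 1 of 12 probe sets that failed the detection rule.

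Tle5, a short relative of the Groucho corepressors formerly called Aes or Grg5, had a level of 894 on the deposited and 6865 on the baseline array of subB. The authors' deposited table lists this as a fold of 7.7 lower with a decrease call. Of its 20 probe pairs, 15 were scored down and none up. Only 6 of the 1813 detected probe sets had 15 or more decreased pairs. At least 7.7-fold lower were 7 detected probe sets, Tle5 among them. Of 36 probe sets counted as lower on this chip, Tle5 ranked 3 by fold, and 1 among the 20 with an exact fold. Its log2 fold of -2.94 was -4.75 SDs from 0 by the spread between probe sets.

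A second measure in the authors' deposited table, the log average ratio of perfect match to mismatch, moved less for Tle5. It was 3.15 on the deposited and 3.90 on the baseline array, a change of -0.75. The median change over the 36 counted decreases was -1.63, with a range from -2.61 to -0.47, and only 1 of them had a smaller drop than Tle5. The number of positive probe pairs was 11 on the deposited and 13 on the baseline array. The 2 measures thus differ in size for Tle5, whose average difference changed by -5971 units, and the gene was called present on the deposited array.

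**Figure D3:**
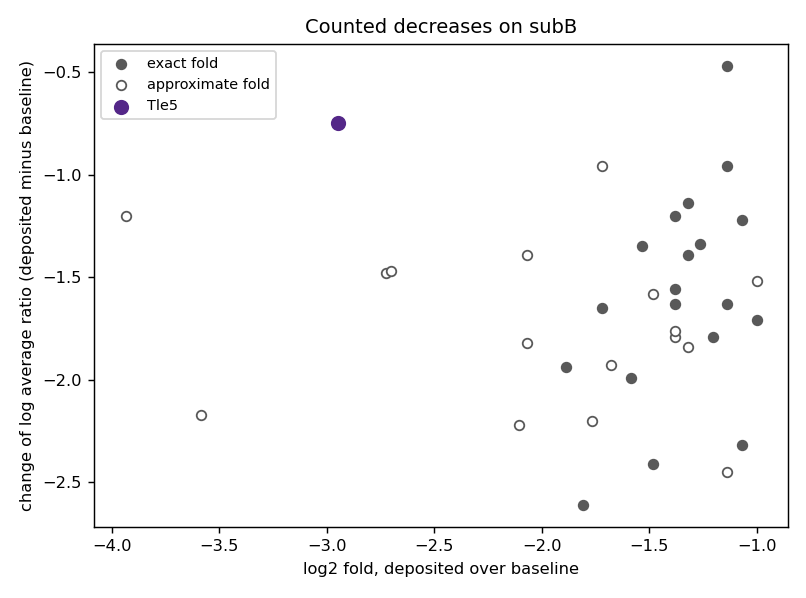
Change of the log average ratio (vertical axis) against the log2 fold (horizontal axis) for the 36 probe sets counted as lower on subB, with open circles for approximate folds. Tle5 has a log2 fold of -2.94 with a change of only -0.75.

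In bulk RNA, fewer cells of a type and less RNA per cell cannot be told apart, so markers of the cell types were read on the same arrays. Of 5 CD4 T-cell markers detected on subB, 3 had a decrease call, Cd3g (2.1-fold lower), Cd3d (1.8-fold) and Cd4 (1.4-fold). The chip's share of decrease calls at any fold is not given here. Only Cd3g, 1 of the 5, counted as lower by the 2-fold rule, against 1.99% of all detected probe sets on subB. The folds of these 3 markers were like those of Maf and Gata3 on that chip. The other markers, Thy1 (1.2-fold lower) and Cd2 (1.1-fold higher), had no call. The levels of the 5 markers summed to 101821 on the deposited and 135744 on the baseline array. The 7 probe sets of dendritic cell or antigen presentation markers on subB, undetected ones included, summed to 24788 and 17723. Of 4 detected, 1 had a call, Cd74, at 9129 and 3146, 2.9-fold higher with 18 of 20 pairs increased. The others were H2-Aa (1.7-fold and 1.1-fold higher) and Flt3 (2.1-fold lower). On subA the 3 detected probe sets of these markers, all of H2-Aa, had folds of 1.0 to 1.1 without a call. On subA the 3 CD4 T-cell markers summed to 16000 and 13512, with Cd3e 1.4-fold higher without a call and Cd28 1.6-fold lower with a decrease call, and the macrophage genes Lyz2 and Cd68 summed to 5927 and 2993. Lyz2 had levels of 5294 and 2286 without a call, and its deposited fold of 6.2 higher exceeds the ratio of these levels, while Cd68 was 1.1-fold lower. On subB the 3 macrophage probe sets summed to -223 and 1312, again with levels below 0, and the 1 detected, Cd14, was 1.6-fold lower without a call. The 9 B-cell probe sets on subA summed to 4830 and 7232, with 4 detected (Blk by both its probe sets, Ighm and Cd79b), at folds of 1.1 to 1.8 lower without a call, and Cd22 absent on both arrays. On subB the sums of 1286 and 30 include levels below 0 of absent probe sets, those of Cd79a and Pax5 among them, and give no fold. The 1 detected B-cell probe set there, of Ighm, was 1.3-fold higher without a call, at 2820 and 2118. Cd8a was absent on both arrays. The part of these shifts in the values of Tle5, Maf and Gata3 was not tested.

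The counted cytokine genes of a list of Th2 and Maf target genes lay on the opposite side from Maf on each chip. On subA, none of the 7 detected probe sets of this list counted as higher, and their median log2 fold was -1.43. Against 90 of 3343 over the whole chip, 6 of the 7 counted as lower. These were Il4 (31.4-fold and 39.9-fold lower), Csf2 (24.8-fold), Il13 (2.3-fold) and Il10 (2.6-fold and 2.7-fold). Maf on the same arrays was 2.2-fold higher without a call. On subB, 77 of 1813 detected probe sets counted as higher over the whole chip. Of this list 4 of 4 did, with a median of 2.93. The genes were Il5 (8.1-fold, at levels of 83175 and 6856 whose ratio is larger than the deposited fold), Il3, Il9 and Csf2. Il3, Il9 and Csf2 had approximate folds over an absent baseline, so each was detected only through the deposited array, where it was high. Maf and Gata3 had folds of 1.4 to 2.0 lower. Csf2, read on both chips, thus had a decrease call on subA and an increase call on subB. Maf and the counted cytokine genes thus had opposite signs within each chip, whichever array is 4Y. The counted genes were selected by their own folds and calls, so this contrast is a description and was not tested. In addition, no Maf or Gata3 probe set had a difference call. Il4 and Il10, named above as genes that c-Maf activates, were read on subA alone, so the subB list held neither. The cytokine list was drawn up with these folds already known.

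**Figure D4:**
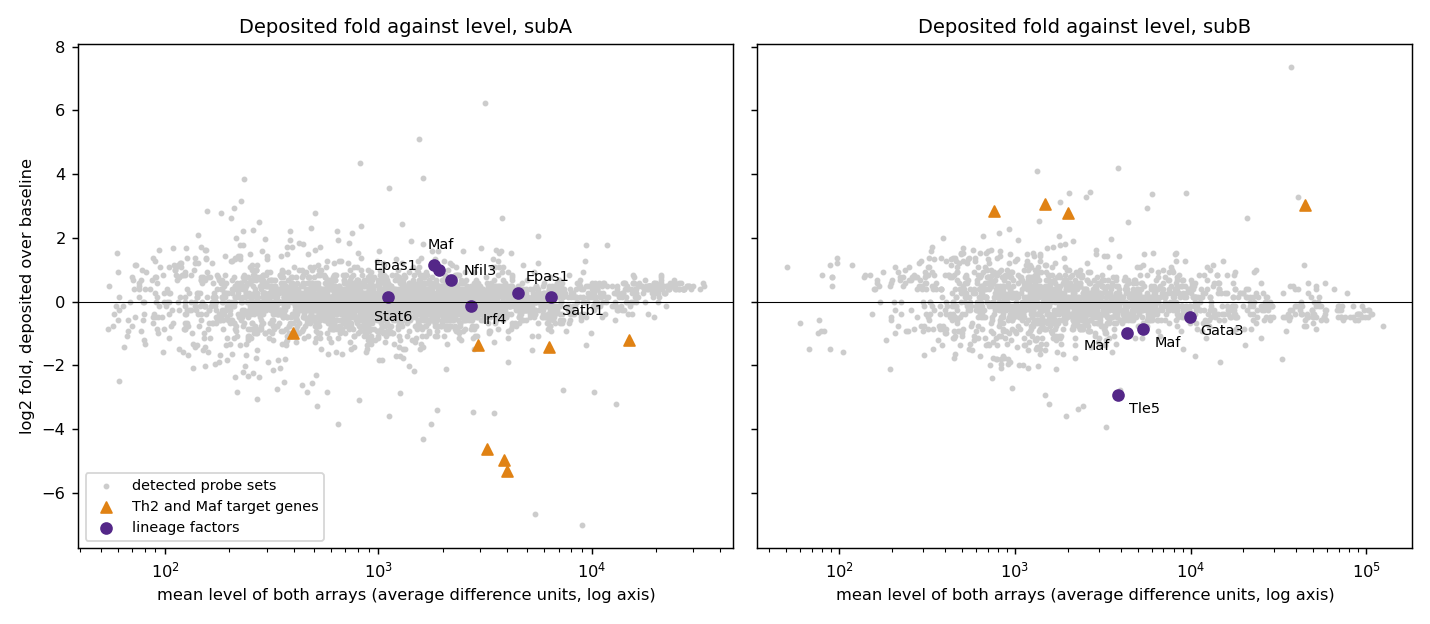
Deposited log2 fold (vertical axis) against the mean level of both arrays (horizontal log axis) for detected probe sets, with lineage factors as purple circles and Th2 and Maf target genes as orange triangles. The triangles lie below 0 on subA and above 0 on subB, and Maf lies on the other side of 0 on each chip. The 72 probe sets on subA and 23 on subB with a mean level of 50 or less are not drawn.

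Around Stat6, a list of its cytokines, receptor, kinases and inhibitors had 11 detected probe sets on subA. Of these, 4 counted as lower, against 90 of 3343 over the whole chip, and none as higher. The list's median log2 fold was -0.14. Among the 4, 3 were the cytokine probe sets of Il4 and Il13 that are also in the target list. The other was Ptpn6, the phosphatase SHP-1 that dampens cytokine and receptor signals, at 2.8-fold lower with 14 of 20 pairs decreased. The kinase gene Jak3 (1.3-fold higher) and the inhibitor genes Socs1 (1.2-fold lower) and Socs3 (1.1-fold lower) had no call. Stat6 itself was at 1.1-fold higher, within the range of these genes without a call.

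Around Tle5, Lef1 and Tcf7, 2 of 6 detected probe sets of Groucho, beta-catenin and Wnt pathway partners counted as lower on subA. Over the whole chip, 90 of 3343 detected probe sets did. The 2 were the deacetylase gene Hdac2 (2.1-fold) and the kinase gene Csnk1a1 (2.0-fold). Another Csnk1a1 probe set was absent on both arrays. The list's median log2 fold was -0.63. Ctnnb1, the beta-catenin gene, had an approximate fold of 3.6 lower without a call, with 5 pairs decreased and none increased. Ctbp1, a further corepressor, was 1.1-fold higher without a call. None of the list's 4 probe sets on subB, the chip that carries Tle5, was detected. Among genes of naive T cells, Ccr7 was the 1 of 6 detected probe sets on subA that counted as lower (2.3-fold), and none of 3 counted on subB, where Cd4 had a decrease call at 1.4-fold.

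Around Epas1, none of 6 detected probe sets of hypoxia-inducible factor partners and targets on subA and none of 5 on subB counted as changed. Over all detected probe sets 4.46% and 6.23% did. The list's medians were -0.12 and -0.14. Hif1a, which encodes the related HIF-1alpha, was 1.6-fold lower without a call, with 6 pairs decreased and none increased. Hmox1, the heme oxygenase gene, picked out after its value was seen, was 1.9-fold higher by its detected probe set without a call, with 7 pairs increased and none decreased. The glycolysis genes Aldoa and Pfkl had folds of 1.3 higher and 1.3 lower on subA. Around Irf4, 1 of 5 detected interferon regulatory factors on subA counted as changed, Irf9 at 2.4-fold higher over an absent baseline, with Irf1 at 1.3-fold higher.

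Lists of factors of other helper lineages, of Th2 partners and of general T lineage factors held no counted probe set on either chip. On subA these were 0 of 5 detected Th1 factors, 0 of 7 Th17, Tfh and regulatory factors, 0 of 11 Th2 partners and repressors and 0 of 6 T lineage factors. On subB they were 0 of 1, 0 of 2, 0 of 8 and 0 of 1. Over all detected probe sets only 4.46% on subA and 6.23% on subB counted as changed, so for lists this small the absence of counts was not read as a result. The medians of the 4 lists ranged from -0.38 to 0.13 on subA and from -0.85 to 0.68 on subB, where 2 of them had 1 detected probe set. Increase or decrease calls below the 2-fold threshold went to Prdm1, which encodes Blimp-1 (1.7-fold higher on subA), Rbpj, the Notch effector (1.9-fold higher on subB), and Jund (1.6-fold lower by 1 of its probe sets on subB). Cebpb, a leucine zipper factor among the Th2 partners that was picked out after its value was seen, had an approximate fold of 3.5 lower on subB with a marginal decrease call, which the counting rule leaves out. Of its 20 probe pairs, 9 were scored down and 2 up. Stat3 and Batf, both tied to Th17 cells, were 1.3- to 1.5-fold lower on subA without a call.

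**Figure D5:**
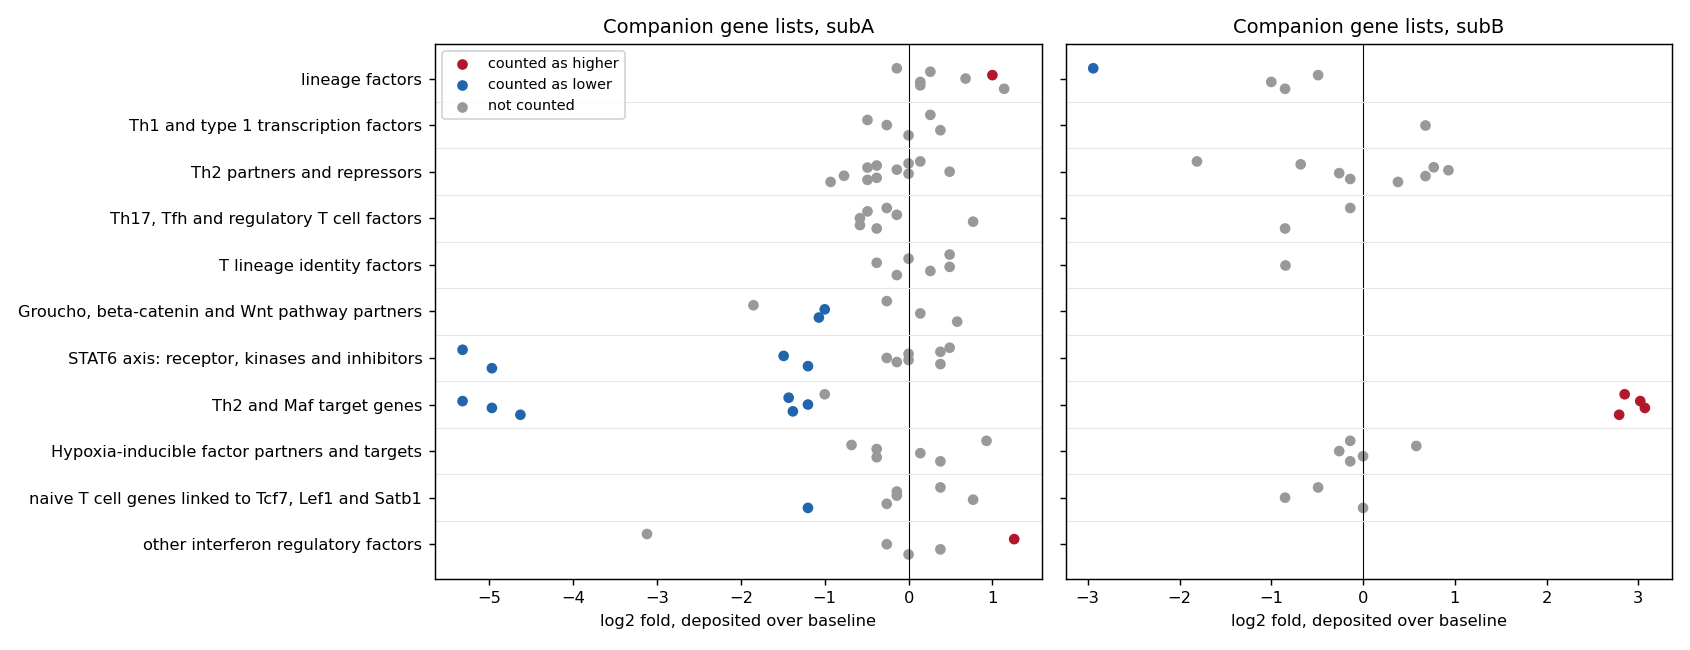
Deposited log2 folds of detected probe sets in the lineage factors and 10 companion lists (rows) on subA and subB, with red for counted as higher, blue for counted as lower and grey for the rest. The axis ranges of both panels differ. Counted probe sets gather in the target genes, to the left on subA and to the right on subB.

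Of the 12 probe sets, 8 have names ending in _s_at, which in Affymetrix naming can match more than 1 transcript. They are the Maf probe set on subA and all those of Gata3, Stat6, Irf4, Nfil3, Satb1, Lef1 and Tle5.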

How the data were processed

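Per the labels, biotinylated cRNA from total RNA was hybridised to both Mu11k chips. The deposited array intensity values are average differences (perfect match minus mismatch), and the authors' deposited comparison tables add fold, difference call and probe pair scores. The software, its version, scaling and noise settings are not given in the sources used here. Baseline levels were computed as level minus change. Probe sets were named by the platform annotation, using those with 1 symbol. Detected means called present on the deposited array or not marked absent on the baseline array. Control probe sets were left out. Counting used a 2-fold threshold, a difference call and detection, a rule of size without a test. All members are named, and of each list genes were named from those counted and up to 4 others with the highest mean level, besides Cebpb and Hmox1. Members and lists were chosen with earlier results of these data known. Alternatives were other thresholds, calls, filters, floors of 100 and 20 units, centring and a running median over 300 probe sets. The counting code was checked on simulated folds whose difference calls were set from those folds, which does not test how the rule performs on these data. Work used Python 3.11.15, pandas 2.3.3, NumPy 2.4.6 and matplotlib 3.10.9.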

Additional observations from a re-analysis of the deposited data

Results flagged for a closer look

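Maf had opposite directions on the 2 chips, with a log2 fold of 1.14 on subA and of -0.85 and -1.0 by its probe sets on subB. The difference between the chips was not tested, as each chip has 1 comparison, and none of the 3 probe sets had a difference call. The chips also ran in opposite directions for 72 of 135 genes detected on both.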

How the results depend on the processing

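The count on subA was the less stable. It was 2 at a threshold of 1.5-fold (Epas1 and Nfil3), 2 with the difference call alone, 2 with the fold alone (Epas1 and Maf) and 0 at a threshold of 3-fold. On subB the count was 2 with the fold alone (Tle5 and a Maf probe set). The other settings left each count at 1. The medians on both chips stayed within the SD between probe sets under every alternative, and 34 of 35 recomputed member values did so too. The exception was Lef1, whose log2 fold of -1.72 became 0 with levels floored at 100. These alternatives could change little, so the stability of the member values says little of their robustness. Centring subtracted a median of 0 on each chip, and the running median left the values of the detected members unchanged. Only Lef1 had a level below the floor of 100 units. With 1 array for each condition, no replicate could be left out, and signals near background, such as Lef1, set no fold.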
